A study of Mus musculus with 6 samples.

Results

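The genes described here are 10 genes of the circadian clock (Arntl, Clock, Per1, Per2, Per3, Cry1, Cry2, Nr1d1, Nr1d2 and Dbp), out of 19938 genes with a named probe set on the array. A member was any probe set whose platform annotation gave a single one of these symbols, with Bmal1 counted as Arntl. All 10 genes had such a probe set, each had 1, and none had a probe set shared with another gene. The tested cells were GFP-positive liver cells, which the labels call replicating (3 arrays), and they were set against GFP-negative liver cells, which the labels call quiescent (3 arrays). All cells came from the livers of 3 weaned CyclinB1-GFP transgenic mice 3.5 weeks old. The livers were perfused and dissociated, and the cells were separated by fluorescence-activated sorting. According to the design text each of the 3 livers yielded both fractions, so both kinds of cell were collected from a mouse at the same hour. Neither that hour nor the promoter driving the reporter is stated in the labels.

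The circadian clock is a transcription loop present in most cells. CLOCK and ARNTL bind E-boxes as a pair and switch on the Per and Cry genes, whose proteins return to the nucleus and repress that pair. The same pair switches on Nr1d1 and Nr1d2, whose products repress Arntl, and Dbp, an activator that binds D-boxes and drives many rhythmic liver genes. In liver the transcripts of Dbp, Nr1d1 and the Per genes are known to be high at hours when that of Arntl is low. In regenerating mouse liver the clock is also known to act on the timing of mitosis through Wee1, a kinase that restrains Cdk1.

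RefSeq promoter windows (build GRCm38.p6) were available for 9 of the 10 members (13 windows), Per2 being the exception, and for 8 of 9 measured loop partners (10 windows). The 250 bases before each transcription start were searched on both strands for the E-box CACGTG, the E-prime box CACGTT, the D-boxes TTATGTAA, TTACGTAA and TTATGCAA, and the core TAGGTCA of the element bound by NR1D1 and RORA. No letters of different motifs overlapped in the windows printed here. The E-box was found in 2 of 13 windows of the members (Per1 and Cry1) and 4 of 10 windows of the partners (Bhlhe41, Ciart and Tef), against 6.02% of all 32851 windows. A D-box was found in 2 of 13 member windows (Per1 and Per3) and in 0 of 10 partner windows, against 1.61% of all windows. The E-prime box was found in 3 of 13 member windows (Cry1, Cry2 and Nr1d1) and in 1 of 10 partner windows (Rorb), against 3.85%. The core TAGGTCA was found in 1 of 10 partner windows (Nfil3) and in 0 of 13 member windows, against 2.23%. These matches describe letters in the windows and are not measured binding sites. The 3 windows below show a gene with both kinds of box (Per1), the member with repeated D-boxes (Per3) and the partner with repeated E-boxes (Ciart). They are written 5′ to 3′ on the gene's strand, with E-boxes and D-boxes in capitals.
Per1, chr11:69098699-69098948, plus strand: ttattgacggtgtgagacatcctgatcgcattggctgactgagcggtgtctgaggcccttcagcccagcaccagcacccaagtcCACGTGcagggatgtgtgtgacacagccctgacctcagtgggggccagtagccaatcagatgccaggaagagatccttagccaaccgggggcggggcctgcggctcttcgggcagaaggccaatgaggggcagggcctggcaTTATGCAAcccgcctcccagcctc
Per3, chr4:151044666-151044915, minus strand: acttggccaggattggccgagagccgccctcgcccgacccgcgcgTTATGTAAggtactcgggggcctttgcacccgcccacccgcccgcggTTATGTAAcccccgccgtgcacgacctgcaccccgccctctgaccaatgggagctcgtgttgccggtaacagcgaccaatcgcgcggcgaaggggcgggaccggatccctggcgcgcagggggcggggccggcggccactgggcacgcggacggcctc
Ciart, chr3:95882229-95882478, minus strand: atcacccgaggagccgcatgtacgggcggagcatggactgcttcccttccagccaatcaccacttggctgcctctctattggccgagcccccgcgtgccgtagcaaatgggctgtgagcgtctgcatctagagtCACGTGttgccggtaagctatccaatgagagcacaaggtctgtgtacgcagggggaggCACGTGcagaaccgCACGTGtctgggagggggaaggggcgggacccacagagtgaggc
In Ciart the E-boxes began 116, 58 and 44 bases before the start, and in Per3 the D-boxes began 205 and 158 bases before it. In Per1 the E-box began 166 bases and the D-box 24 bases before the start.

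Values are log2 intensities, which can be compared between arrays for a gene but not between genes. Array medians lay between 4.60 and 4.74 on that scale. Of 12 genes of mitosis used to check the sort, all 12 rose in GFP-positive cells (median log2 difference 3.88), against 1.55% of all genes. This list was chosen with earlier results of these data known. Each gene was read from its brightest probe set. A dimmer probe set of Top2a (10390746) differed by 0.83 and did not pass (limma adjusted p = 0.094 among all probe sets). All 9 hepatocyte markers lay above the array medians, with gene means of 8.43 (Hnf4a) to 13.28 (Alb). Of the markers of other cells, 0 of 6 neutrophil, 1 of 7 lymphoid, 1 of 5 cholangiocyte, 2 of 9 Kupffer cell, 3 of 4 erythroid, 5 of 8 stellate and 6 of 8 endothelial markers had means above the array medians. The summed level of the hepatocyte markers ranged from 15.53 to 15.6 in the GFP-positive arrays, against 15.66 to 15.7 in the GFP-negative arrays, and that of the Kupffer cell markers from 7.45 to 7.56, against 7.65 to 7.97. The summed level of the endothelial markers ranged from 7.996 to 8.06 in the GFP-positive arrays, against 8.16 to 8.54 in the GFP-negative arrays, and that of the stellate markers from 8.11 to 8.33, against 8.52 to 8.67. The sums of the other 4 lists overlapped between fractions. Clec4f, a lectin gene of Kupffer cells, was the single marker of the 8 cell type lists to pass the test (-0.68 ± 0.13, limma adjusted p = 0.032, and 0.077 with the replicate number as a block). It was 1 of 9 Kupffer cell markers, and 0 passed in the other lists of the sizes given above, against 1.67% of all genes. The part of these cell types in the values below was not tested, and fewer cells of a type and less RNA per cell cannot be told apart in such bulk arrays.

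The comparison asked whether the level of clock transcripts sets dividing liver cells apart from resting ones, and none of the 10 genes passed the test. The log2 differences (GFP-positive minus GFP-negative) ran from -0.46 for Nr1d1 to 0.30 for Per1, with a median of -0.15, against -0.03 over all genes. With limma and Benjamini-Hochberg adjustment over all 19938 genes, 0 of 10 members passed an adjusted p of 0.05 (adjusted p = 0.70 to 0.96), and 1.67% of all genes passed. No member had an unadjusted p below 0.05 (0 of 10), against 8.8% of all genes. The arrays of the fractions overlapped in all 10 members. Overlap was also the common case over all genes, of which 13.8% had none.

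The activating arm of the loop had means above those of GFP-negative cells, within the spread between arrays. Arntl (probe set 10556463), which encodes the partner of CLOCK, stood at 6.57, 6.08 and 5.80 in GFP-positive cells of replicate numbers 1, 2 and 3, against 6.35, 5.44 and 6.03 in GFP-negative cells. The fractions overlapped, and number 1 was highest in both. Its log2 difference was 0.21 ± 0.26 (SE; limma adjusted p = 0.90, 95% interval -0.37 to 0.80). Clock (probe set 10530733), the other member of the activating pair, had 7.96, 7.70 and 7.96 in GFP-positive arrays and 7.77, 7.94 and 7.40 in GFP-negative arrays. No number was highest or lowest for Clock in both fractions, and its log2 difference was 0.17 ± 0.17 (adjusted p = 0.88, interval -0.21 to 0.56).

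The 3 Period genes, which encode the repressors that accumulate during the cycle, differed in sign. Per1 (probe set 10377439), which also responds quickly to hormonal and stress signals, measured 5.36, 5.92 and 5.998 in GFP-positive arrays and 5.25, 5.82 and 5.31 in GFP-negative arrays. Within numbers 1, 2 and 3 its differences were 0.11, 0.09 and 0.69, all above 0, yet the fractions overlapped and the difference of 0.30 ± 0.22 did not pass (limma adjusted p = 0.81, interval -0.19 to 0.79). Per2 (probe set 10356601), with values of 5.02, 5.61 and 5.10 in GFP-positive and 5.26, 5.52 and 5.44 in GFP-negative arrays, had number 2 highest in both fractions. Its difference was -0.16 ± 0.18 (adjusted p = 0.90). Per3 (probe set 10518781) measured 4.32, 4.52 and 4.94 in GFP-positive arrays, against 4.58, 4.82 and 4.61 in GFP-negative arrays. Per3 was the single member not above the array median in every array, so its difference of -0.08 ± 0.18 (adjusted p = 0.96) rests on dim signals.

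The Cryptochrome genes, whose products are the main repressors of CLOCK and ARNTL, also overlapped between fractions. Cry1 (probe set 10371400) had 5.64, 5.37 and 5.05 in GFP-positive cells, against 5.06, 5.74 and 5.74 in GFP-negative cells. The order of the numbers was reversed between the fractions, and the log2 differences within numbers 1, 2 and 3 were 0.58, -0.37 and -0.70. The mean difference of Cry1 was -0.16 ± 0.22 (limma adjusted p = 0.92). Cry2 (probe set 10485170), at 4.94, 5.32 and 5.14 in GFP-positive and 5.13, 5.27 and 5.43 in GFP-negative arrays, differed by -0.14 ± 0.15 (adjusted p = 0.89).

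Nr1d1 and Nr1d2, which encode the nuclear receptors REV-ERB alpha and beta that repress Arntl, had mean levels below those of GFP-negative cells without passing the test. Nr1d1 (probe set 10390691) measured 7.28, 7.76 and 8.10 in GFP-positive arrays and 7.88, 8.65 and 7.97 in GFP-negative arrays. The GFP-positive arrays of numbers 1 and 2 lay below their GFP-negative counterparts (log2 differences of -0.61 and -0.89), whereas that of number 3 lay above its counterpart (0.13). In the fit without the replicate number as a block, the log2 difference of Nr1d1 was -0.46 ± 0.25 (limma adjusted p = 0.70). Its interval of -1.03 to 0.11 was the single one among the 10 to reach beyond a log2 difference of 1. With that block the difference was -0.46 ± 0.21 (limma adjusted p = 0.58). Nr1d2 (probe set 10417734) had 8.26, 8.61 and 8.35 in GFP-positive cells, against 8.46, 8.79 and 8.74 in GFP-negative cells. Within numbers 1, 2 and 3 its differences were -0.20, -0.18 and -0.39, all below 0, but the fractions overlapped (-0.26 ± 0.16, adjusted p = 0.76, interval -0.61 to 0.10). Nr1d2 and Per1 were the 2 members of 10 with 1 sign in all 3 numbers, and 28.1% of all genes had 1 sign.

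Dbp (probe set 10553092), the D-box activator and a direct output of the loop, stood at 5.82, 6.48 and 6.35 in GFP-positive arrays and at 6.09, 7.20 and 6.31 in GFP-negative arrays. The GFP-negative array of number 2 was the highest of the 6, and the remaining arrays of the fractions overlapped. The log2 difference of Dbp was -0.32 ± 0.28 (limma adjusted p = 0.87, interval -0.96 to 0.32), and without the GFP-negative array of number 2 it was 0.01. For 9 of the 10 members the 95% interval lay within a log2 difference of 1 either way. All 10 intervals included 0, so a member's differences inside its own interval cannot be told from none with 3 arrays a fraction. In simulated data of 19938 genes, a log2 difference of 0.5 was called in 16% and a difference of 1 in 58% of the changed genes. The noise simulated was the spread left after replicate number and fraction were fitted, with no shared spread between numbers. For genes that vary between numbers, these shares may be too high for the fit without the block. With the replicate number as a block 0 of 10 members passed (adjusted p = 0.58 to 0.98), against 1.78% of all genes.

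**Figure D1:**
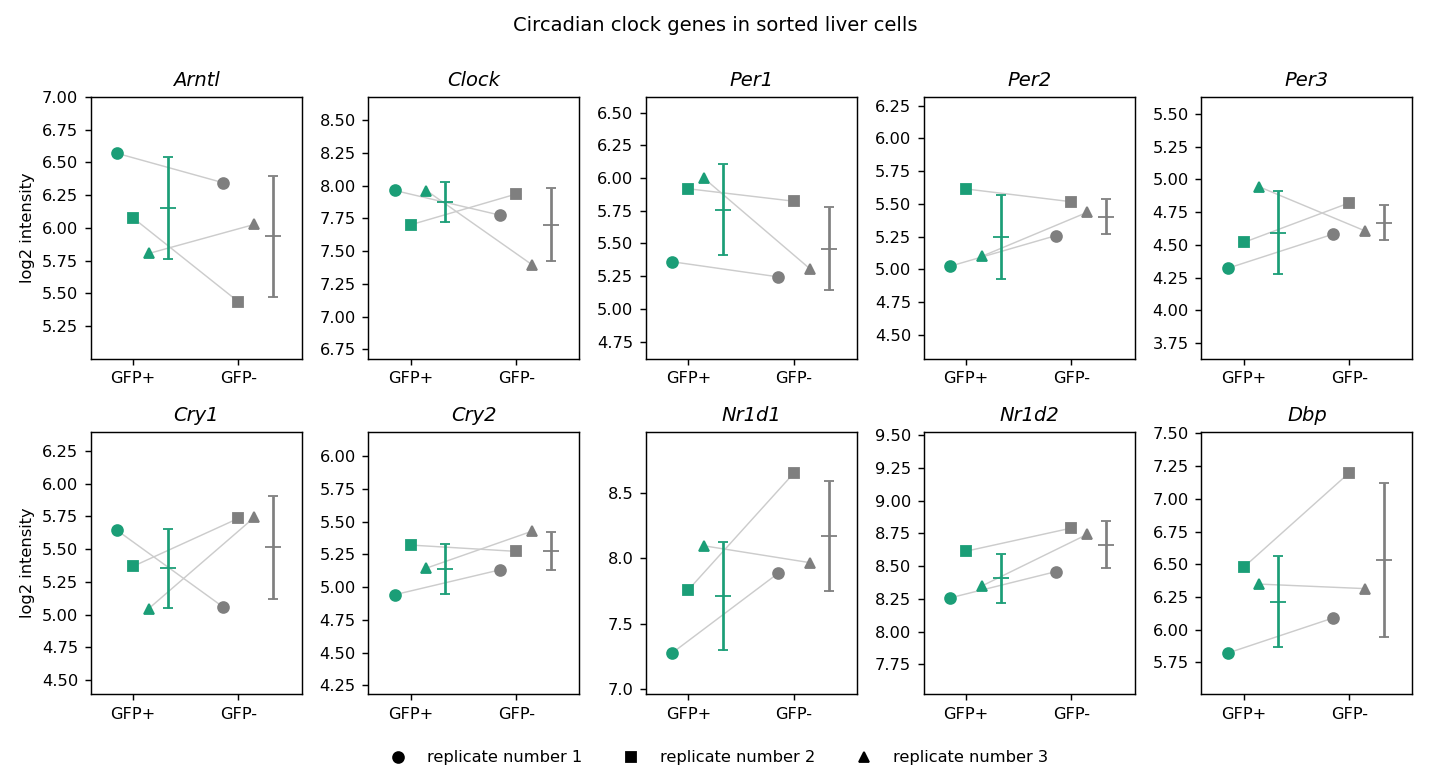
Log2 intensity of the 10 clock genes in GFP-positive (green, left) and GFP-negative cells (grey, right), 1 point per array, with the marker shape giving the replicate number, grey lines joining arrays of the same number, and a bar for the mean and SD of each fraction. Every axis spans the same log2 range, and the fractions overlap in all 10 genes.

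No partner of the loop passed between fractions either. Of the 9 partners analysed here, 0 of 9 passed, against 1.67% of all genes, and 7 of 9 had differences below 0 (median -0.06), as did 55.7% of all genes. Bhlhe40, which encodes a repressor that competes for E-boxes, had the difference furthest from 0. It measured 6.01, 7.21 and 6.48 in GFP-positive arrays and 6.66, 7.99 and 6.90 in GFP-negative arrays, lower in GFP-positive cells within every number (-0.62 ± 0.37, limma adjusted p = 0.74). With the replicate number as a block the difference of Bhlhe40 was -0.62 ± 0.16 and did not pass (limma adjusted p = 0.14). Its relative Bhlhe41 averaged 3.30 ± 0.29 in the GFP-positive arrays, against 3.71 ± 1.003 in the GFP-negative arrays (SD, n = 3 each), below the array medians in both. The D-box activators Tef and Hlf differed by -0.02 ± 0.19 and -0.04 ± 0.22, and their antagonist Nfil3 by -0.30 ± 0.21. Rora, an activator of Arntl, differed by 0.04 ± 0.14. Rorb (-0.15 ± 0.15) and Arntl2 (-0.06 ± 0.17) lay below the array medians in all 6 arrays. Ciart, which encodes a repressor of the CLOCK and ARNTL pair, was represented by probe set 10373452, which spread widely between numbers. What that probe set measures is uncertain, as described below. Probe set 10373452 differed by 0.10 ± 0.98 (limma adjusted p = 0.99), and with the replicate number as a block by 0.10 ± 0.32 (limma adjusted p = 0.98). The other probe set annotated as Ciart, 10500272, differed by 0.21 (limma adjusted p = 0.95 among all probe sets).

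**Figure D2:**
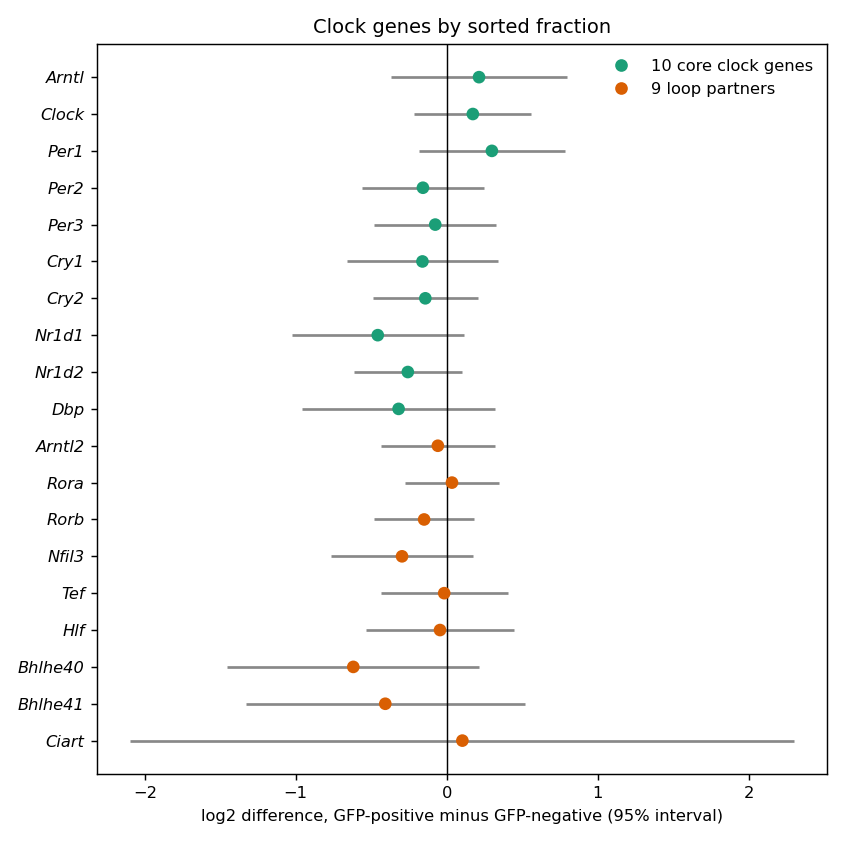
Log2 difference (GFP-positive minus GFP-negative) with its 95% interval from limma for the 10 core clock genes (green) and 9 loop partners (orange), 3 arrays a fraction. All 19 intervals include 0, and that of Ciart, from -2.10 to 2.30, is the widest. Ciart is drawn from probe set 10373452, and what that probe set measures is uncertain.

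Of 25 measured genes whose products modify or bind clock proteins, 1 rose and 0 fell in GFP-positive cells, against 1.55% and 0.115% of all genes. Tipin, whose product binds TIMELESS at replication forks, had 8.01, 7.80 and 7.92 in GFP-positive cells, against 7.15, 6.66 and 6.88 in GFP-negative cells. The fractions did not overlap, and Tipin was 2.02-fold higher (log2 difference 1.02 ± 0.16, limma adjusted p = 0.0095). Without the GFP-positive array of number 1 its adjusted p was 0.056. Timeless, which in mammals is known for a role at replication forks, differed by 0.23 ± 0.17 (adjusted p = 0.81). The list median was 0.03, and 16 of the 25 lay above 0.

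Of 15 measured liver genes known as rhythmic outputs, 1 rose and 1 fell, against 1.55% and 0.115% of all genes. Differences lay below 0 in 13 of the 15 (median -0.36) and in 55.7% of all genes. Wee1, the kinase gene that links the clock to mitosis and is itself a gene of the division cycle, stood at 7.07, 7.74 and 7.59 in GFP-positive arrays and at 5.67, 6.48 and 5.70 in GFP-negative arrays. Every GFP-positive array lay above every GFP-negative array, and Wee1 was 2.85-fold higher (1.51 ± 0.25, limma adjusted p = 0.013). Cyp7a1, the rate-limiting enzyme gene of bile acid synthesis and a gene with a daily rhythm, measured 9.10, 9.06 and 9.31 in GFP-positive cells, against 10.01, 10.45 and 9.96 in GFP-negative cells. It was lower in GFP-positive cells without overlap (-0.98 ± 0.17, adjusted p = 0.017). Both calls were lost when any of several arrays was left out, while the differences kept their direction. For Wee1 the adjusted p was 0.058, 0.061, 0.067 and 0.080 without GFP-positive 2, GFP-positive 3, GFP-negative 1 and GFP-negative 3, with log2 differences of 1.38, 1.45, 1.37 and 1.39. For Cyp7a1 it was 0.080 and 0.068 without GFP-positive 1 and GFP-positive 2 (differences of -0.95 and -0.93), and 0.098 without both arrays of number 2 (-0.78). Elovl3, a fatty acid elongase gene named here after its values were seen, did not pass in the fit without the block (-1.62 ± 0.55, adjusted p = 0.34) and passed with it (0.0062).

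**Figure D3:**
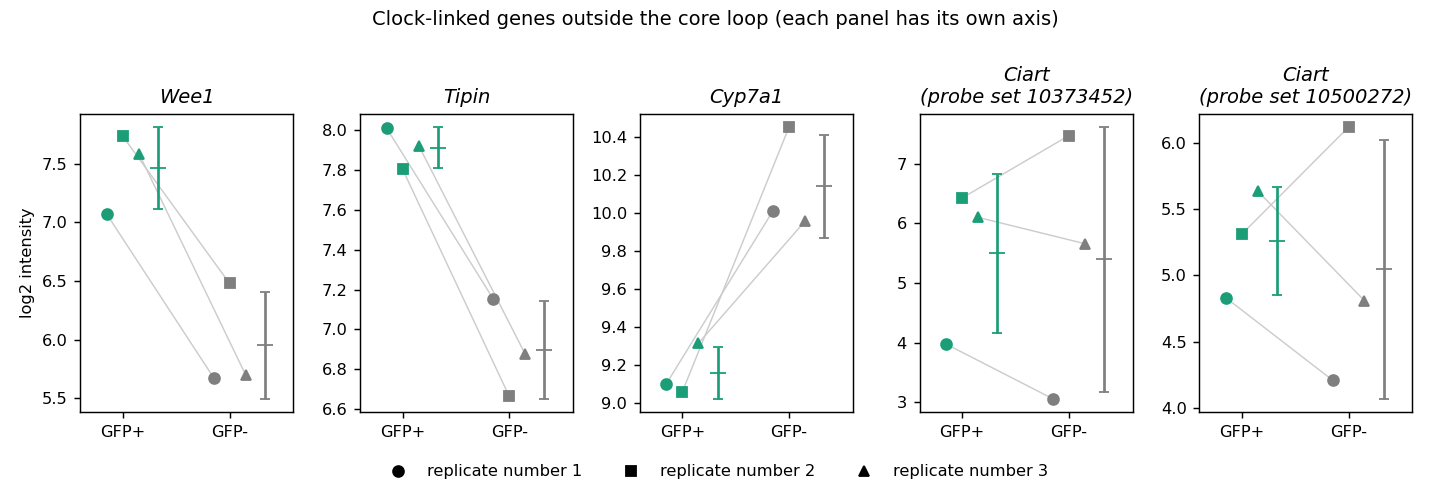
Log2 intensity of Wee1, Tipin, Cyp7a1 and both probe sets annotated as Ciart in GFP-positive (green, left) and GFP-negative cells (grey, right), drawn as 1 point per array with the mean and SD of each fraction, on axes of different range. Wee1 and Tipin separate upward and Cyp7a1 downward, and number 1 is lowest in both fractions in both Ciart probe sets, of which 10373452 has the wider spread between numbers.

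Arrays of the same replicate number were compared next, since each liver yielded both fractions. Over the members, the range of the 3 number means (each the mean of a GFP-positive and a GFP-negative array) was larger than the size of the fraction difference in 10 of 10 genes, and it was larger in 71.4% of all genes. It ran from 0.19 for Clock to 0.88 for Dbp, with a median of 0.38, against 0.24 over all genes. With limma's F test over the numbers, fraction kept as a term, 0 of 10 members passed after adjustment over all genes (adjusted p = 0.72 to 1), and 0.166% of all genes passed. Arntl and Dbp were the 2 members with an unadjusted p below 0.05 (0.037 and 0.012), as were 5.12% of all genes. In simulated data of 19938 genes this test called 0% of genes changed by 1 and 38% of genes changed by 2 in a single number, so ranges of the size seen in the members were not detectable.

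Number 1 had the lowest value in both fractions in 7 of 10 members (Per1, Per2, Per3, Cry2, Nr1d1, Nr1d2 and Dbp), as it did in 12.9% of all genes. Arntl showed the opposite order, with number 1 highest in both fractions, as in 7.65% of all genes. This pattern was noticed in the data and has no test. With quantile normalization 4 of the 7 stayed (Per2, Cry2, Nr1d1 and Dbp), against 10% of all genes. With arrays centred on their medians 4 stayed (Per2, Cry2, Nr1d2 and Dbp), against 9.27% of all genes. Number 1 remained highest for Arntl in both fractions under each scaling. Dbp averaged 5.96, 6.84 and 6.33 in numbers 1, 2 and 3, and Arntl 6.46, 5.76 and 5.92, so that by these means Dbp was lowest and Arntl highest in number 1, and the reverse in number 2. Across the 10 members, deviations from the fraction means correlated by 0.53, 0.29 and -0.71 between the GFP-positive and GFP-negative arrays of numbers 1, 2 and 3. These correlations are across genes that share arrays, with deviations that sum to 0 within a fraction, and describe these arrays alone.

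**Figure D4:**
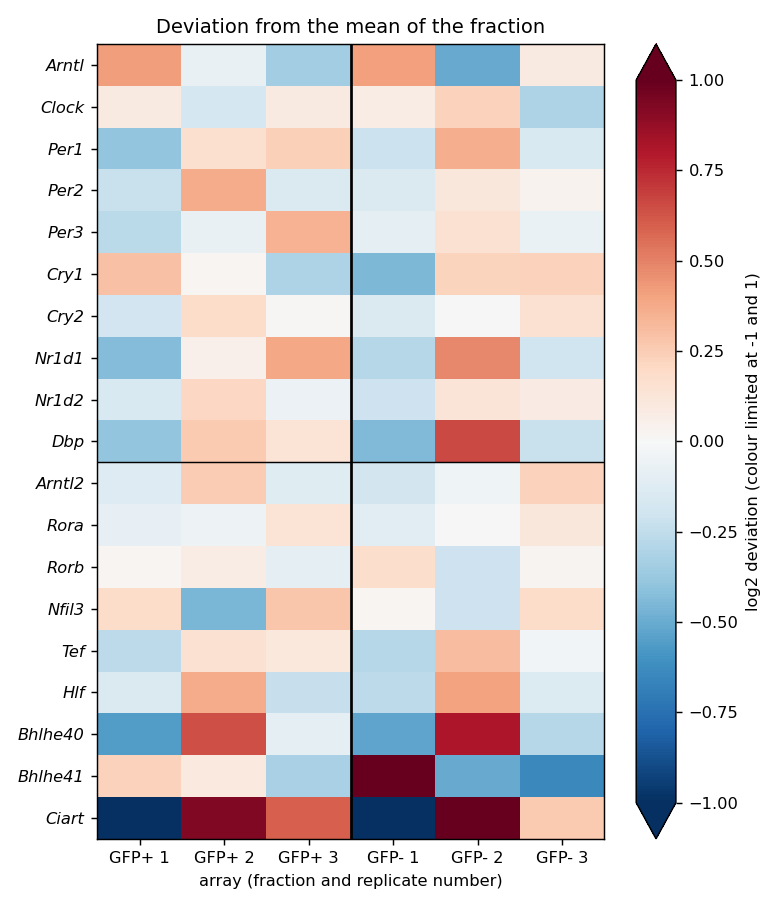
Deviation of each array's log2 intensity from the mean of its own fraction for the 10 core clock genes (above the line) and 9 loop partners (below), with GFP-positive arrays left and GFP-negative arrays right. Number 1 is blue (low) in both fractions for 7 core genes and red (high) in both for Arntl and, more faintly, for Clock.

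Of the 9 partners, Ciart passed the test over numbers. The probe set used for it (10373452) measured 3.98, 6.42 and 6.10 in GFP-positive cells of numbers 1, 2 and 3, against 3.06, 7.47 and 5.66 in GFP-negative cells. Number 1 was lowest and number 2 highest in both fractions, and the number means spanned 3.43 on the log2 scale (limma adjusted p = 0.029). The adjusted p was 0.060 with quantile normalization, 0.14 with arrays centred on their medians and 0.16 with the mean of both Ciart probe sets. A second probe set annotated as Ciart (10500272) measured 4.83, 5.31 and 5.64 in GFP-positive and 4.21, 6.12 and 4.81 in GFP-negative arrays, with number 1 lowest in both, and did not pass (adjusted p = 0.92 among all probe sets). Ciart lies on chromosome 3, as do the genes of all 10 nearest probe set numbers of 10500272. The 10 nearest numbers of 10373452 belong to genes of chromosome 10, between Zc3h10 and Pa2g4, so what 10373452 measures is uncertain.

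Bhlhe40 had number 1 lowest and number 2 highest in both fractions, with number means of 6.34, 7.60 and 6.69 (adjusted p = 0.12). Hlf means of 7.17, 7.76 and 7.20 and Tef means of 6.16, 6.67 and 6.47 also had number 1 lowest and number 2 highest, and those of Nfil3 were 7.61, 7.18 and 7.74. Bhlhe41, dim in most arrays, had 4.20, 3.30 and 3.02. These 5 genes did not pass after adjustment. Among 728 non-member genes above the array medians with an SD of at least 0.5 over the 6 arrays, the 3 closest to Dbp by Pearson's r over the 6 arrays were Ctss (0.96), Map2k6 (0.95) and Bhlhe40 (0.95). Those closest to Arntl were Hspa1l (0.83), Mtfr2 (0.83) and AI506816 (0.74). None of these 6 genes passed over numbers or between fractions, and the 6 arrays come from 3 livers. Each r was picked as among the highest of 728, and whether such values exceed chance was not tested.

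Genes that respond to hormones, handling and temperature were read in the same way. Of 10 glucocorticoid target genes, 0 passed between fractions (median -0.14), against 1.67% of all genes. Over numbers 2 passed, the metallothionein genes Mt1 and Mt2, against 0.166% of all genes. Mt2, whose product binds zinc and which is induced by metals and stress hormones, stood at 7.33, 10.83 and 7.77 in GFP-positive arrays, against 7.43, 11.39 and 7.38 in GFP-negative arrays (adjusted p = 0.00051), and Mt1 followed the same order (adjusted p = 0.0020). Both were high in number 2, and without both arrays of that number neither passed (adjusted p = 0.9997 for each). With number as the single term the adjusted p was 0.064 for Mt1 and 0.0066 for Mt2. Of 12 immediate early genes that respond to tissue dissociation, 0 passed either test, against 1.67% of all genes between fractions and 0.166% over numbers. Differences lay below 0 in 11 of the 12 (median -0.30), against 55.7% of all genes, and 8 had number 2 highest in both fractions, as did 11.3% of all genes. The member furthest from 0 was Egr1 (-0.61 ± 0.25, adjusted p = 0.50). Of 8 heat and cold responsive genes 0 passed either test, and Hsp90aa1 had the largest difference (0.78 ± 0.26, adjusted p = 0.33).

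Number 2 also stood apart in sex-linked genes. Xist was at 9.80 in its GFP-positive array and 9.03 in its GFP-negative array, and between 3.73 and 4.04 in the other 4 arrays. Eif2s3y, a gene of the Y chromosome, was at 2.24 in the GFP-positive and 1.98 in the GFP-negative array of number 2. It lay between 6.78 and 7.31 in the other 4 arrays. By these 2 genes number 2 was female and numbers 1 and 3 were male. For number 2, sex, the hour of collection, stress and handling cannot be told apart with 3 livers. Between numbers 1 and 3 the hour, stress and handling cannot be told apart either. The part of all these in the clock gene values was not tested.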

How the data were processed

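Total RNA of sorted liver cells was amplified, labelled with biotin and hybridised to Affymetrix arrays. Each of the 6 arrays has 1 intensity per probe set, made by the authors with RMA, per the submitters' processing notes; its version and settings are not stated there. The deposited intensities are linear (1.62 to 15836), so log2 was taken, with no further normalization or filter. Of 35512 probe sets 21789 had 1 symbol, updated through Entrez identifiers, and each of 19938 genes was represented by its brightest probe set. Fractions were compared with limma 3.58.1 in R 4.3.3 (lmFit, eBayes, 4 residual and 5.44 prior degrees of freedom). Replicate numbers were compared by an F test with fraction as a term (2 residual and 6.88 prior degrees of freedom). P-values were adjusted over all genes (Benjamini-Hochberg, threshold 0.05). The number of arrays limits the precision, and no detection calls were used.

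Both tests were checked on simulated data, where 5.8% and 0% of calls were false. Apart from the genes changed by number, the simulated data held no shared spread between numbers. The numbers were taken to pair arrays of 1 mouse, since the design text gives 3 livers for both fractions, but no label says so. Xist was high in both arrays of number 2 and in no other array. Of genes picked by the test over numbers, Mug2 was at 7.47 and 7.48 in number 1 and at 10.66 to 10.98 in the other arrays. Cyp2c39 was at 8.24 and 8.03 in number 3 and at 11.42 to 12.14 in the other arrays. Genes picked by that test agree within a number by selection, so Mug2 and Cyp2c39 cannot show whether numbers pair arrays of 1 mouse. Deviations from the fraction means correlated by 0.20, 0.06 and -0.05 across all genes for numbers 1, 2 and 3. The members and gene lists were chosen with earlier results of these data known. Named were all members and partners, called genes of the other lists (otherwise the gene furthest from 0), and the 3 genes closest to Dbp and to Arntl. Timeless, Elovl3, Sfpq, Mug2, Cyp2c39, and the marker and sex-linked genes were named outside this rule. Alternatives were other scalings, filters, probe set rules, variance models and thresholds, the replicate block, and leaving out arrays. Figures were made with Python 3.11.15 and matplotlib 3.10.9. The p-values measure the spread between these arrays.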

Additional observations from a re-analysis of the deposited data

How the results depend on the processing

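Over 160 differences of the 10 members under the alternatives, 155 kept their sign and side of the threshold, 0 passed (lowest adjusted p = 0.47), and 5 turned sign. Under the filter, the probe set rules, the intensity trend, the other threshold and the replicate block, a member's difference was the same by construction. Signs could turn only with other scalings, array weights or arrays left out, so the count of 155 says little about how stable the signs are. Cry1 was 0.057 with array weights and Per3 0.037 without both arrays of number 2. With single arrays left out Arntl ran from -0.036 to 0.42, Dbp from -0.54 to 0.013 and Per3 from -0.25 to 0.061. Of the partners, Rora was -0.031 with quantile normalization and Tef 0.058 without both arrays of number 2, and with single arrays left out Arntl2 ran from -0.18 to 0.055, Bhlhe41 from -0.73 to 0.17, Ciart from -1.06 to 1.14, Hlf from -0.23 to 0.16, Rora from -0.032 to 0.094 and Tef from -0.16 to 0.14. The replicate block changed the call of Elovl3 and no other call among the 4 clock lists. Between fractions, regulators passing numbered 2 with array weights and 2 at an adjusted p below 0.10 (Tipin and Sfpq), and 0 to 1 with single arrays left out. Outputs passing numbered 1 (Wee1) without both arrays of number 2, and 0 to 2 with single arrays left out, 0 being without GFP-positive 2. Over numbers, all genes passing were 33, against 16 with arrays centred on their medians, 50 with array weights, 7 with number as the single term, and 56 to 270 with single arrays left out. Partners passing over numbers were 0 with quantile normalization, with centring, with the mean of all probe sets and with number as the single term, 2 with array weights (Bhlhe40 and Ciart), 2 without both arrays of number 2 (Bhlhe41 and Ciart), and 1 to 3 with single arrays left out. Members passing over numbers were 0 to 1, the 1 being Dbp without GFP-positive 2. Leaving out an array leaves 1 residual degree of freedom in the F test and a number with a lone array, so those counts rest on the pooled spread (10.5 to 25.8 prior degrees of freedom) and the lone array is assumed to vary like the others. Members lowest in number 1 in both fractions were 4 of 10 with quantile normalization and 4 with centring, settings added after the data were seen. Otherwise the cause of these changes was not tested. Per3, Bhlhe41, Rorb and Arntl2 lie near or below the array medians, which limits their differences.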
